A study of Homo sapiens with 6 samples.

Results

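The 39 HOX genes were described one by one, with the 28 gaps between them, in 5 lists of chromatin immunoprecipitation sequencing peaks. The members are the protein-coding genes whose symbol is HOXA, HOXB, HOXC or HOXD followed by a number. They are 39 of the 19974 protein-coding genes of the annotation used (RefSeq, GRCh38.p14), with 11 genes in HOXA, 10 in HOXB, 9 in HOXC and 9 in HOXD. All libraries came from HEK293T, a line made from human embryonic kidney cells and carrying the SV40 large T antigen, and the labels name no treatment. The study made 1 library with each antibody. A pair of antibodies, from CST and from Abcam, recognised the histone variant H2A.Z, and H2AZ CST and H2AZ Abcam are the names of their lists. The other lists are for the histone variant H3.3, for histone H4 acetylated at lysine 16 (H4K16ac) and for histone H3 dimethylated at lysine 79 (H3K79me2). With 1 library each there is no spread between replicates, and all values describe these libraries without a test.

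HOX genes encode homeodomain transcription factors that give cells their position along the body axis. Genes with the lowest numbers lie at one end of each cluster and act towards the head, and genes with the highest numbers lie at the other end and act towards the tail. H3K79me2 is written by DOT1L over transcribed genes, and HOXA genes are its best known targets in leukaemias with MLL fusions. H3.3 is placed into chromatin outside replication, often where genes are transcribed, and H2A.Z is typically found beside the starts of active genes.

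Starts of HOX genes fell into every combination of H2AZ and H3K79me2, and 4 of them are shown here because they stand for these combinations. Each sequence is the 250 bases before the start (RefSeq, GRCh38.p14), written 5′ to 3′ on the gene's own strand, with each CG dinucleotide in capitals. The values are shares of the window from 1 kb before to 1 kb after the start. HOXA10, a regulator of the developing uterus and of blood progenitors, has its outer start at position 27179861 of chromosome 7, where H3K79me2 covered 100% of the window, H3.3 covered 64.1% and neither H2AZ list had a peak. HOXA13, which acts in the digits and the genital tract, had H3K79me2 over 99.2%, H2AZ CST over 41.4% and H2AZ Abcam over 54.4%. HOXD1 had H2AZ CST over 52.2% and H2AZ Abcam over 58%, with no H3K79me2. HOXB1, a hindbrain gene, had neither, and H3.3 covered 32.3% of its window. The shown stretch holds 19 CG dinucleotides at HOXA10, 40 at HOXA13, 31 at HOXD1 and 7 at HOXB1.
HOXA10 (chr7:27179862-27180111, minus strand): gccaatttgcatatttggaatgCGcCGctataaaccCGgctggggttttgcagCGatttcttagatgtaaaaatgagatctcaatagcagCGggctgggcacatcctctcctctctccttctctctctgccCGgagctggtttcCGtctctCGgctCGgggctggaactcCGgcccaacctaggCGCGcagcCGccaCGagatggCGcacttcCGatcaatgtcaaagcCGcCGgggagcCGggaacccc
HOXA13 (chr7:27200092-27200341, minus strand): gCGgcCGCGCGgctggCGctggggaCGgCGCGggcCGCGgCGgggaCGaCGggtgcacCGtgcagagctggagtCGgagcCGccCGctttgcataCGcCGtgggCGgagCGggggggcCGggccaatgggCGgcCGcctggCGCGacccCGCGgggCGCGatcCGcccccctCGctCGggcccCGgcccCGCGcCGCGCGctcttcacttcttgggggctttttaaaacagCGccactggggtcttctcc
HOXD1 (chr2:176188418-176188667, plus strand): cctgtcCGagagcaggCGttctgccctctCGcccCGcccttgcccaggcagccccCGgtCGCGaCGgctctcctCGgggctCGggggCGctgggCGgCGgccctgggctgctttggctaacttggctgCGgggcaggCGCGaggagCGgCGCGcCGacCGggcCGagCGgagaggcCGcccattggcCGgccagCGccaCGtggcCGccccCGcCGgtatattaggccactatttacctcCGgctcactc
HOXB1 (chr17:48531012-48531261, minus strand): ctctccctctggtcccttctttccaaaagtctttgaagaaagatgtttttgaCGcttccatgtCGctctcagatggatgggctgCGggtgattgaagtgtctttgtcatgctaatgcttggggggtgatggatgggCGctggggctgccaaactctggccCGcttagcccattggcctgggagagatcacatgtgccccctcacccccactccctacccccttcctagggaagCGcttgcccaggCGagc

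The gaps between HOX genes hold microRNAs that are best known for acting on HOX messages. They are shown because those of the miR-196 family lay on both sides of the H3K79me2 borders described below. Capitals mark the seed, bases 2 to 8 of the mature microRNA (RefSeq, GRCh38.p14). The miR-196 members share the seed AGGUAGU.
hsa-miR-196b-5p, between HOXA9 and HOXA10: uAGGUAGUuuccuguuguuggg
hsa-miR-196a-5p, between HOXC9 and HOXC10 and between HOXB9 and HOXB13: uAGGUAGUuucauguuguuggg
hsa-miR-10a-5p, within HOXB3: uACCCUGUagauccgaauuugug
H3K79me2 covered 100% of MIR196B in HOXA, 100% of MIR196A2 in HOXC and 100% of MIR10A in HOXB. The copy that gives the same mature miR-196a from HOXB, MIR196A1, had 0% covered, as had MIR10B in HOXD.

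H3K79me2 lay over whole HOX genes and over the sequence between them, whereas H3.3 was spread through them as many narrow peaks. In the 527.9 kb between the first and the last gene of the 4 clusters, H3K79me2 peaks covered 56.5% of the bases and H3.3 peaks 22.6%. H2AZ CST covered 4.29%, H2AZ Abcam 5.45% and H4K16ac 3.50% of the same bases. The H3.3 peaks numbered 268, against 105 for H3K79me2, 68 for H2AZ Abcam, 65 for H2AZ CST and 62 for H4K16ac. In the map of the 4 clusters, H3K79me2 forms near continuous blocks and the other lists form separate bars.

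**Figure D1:**
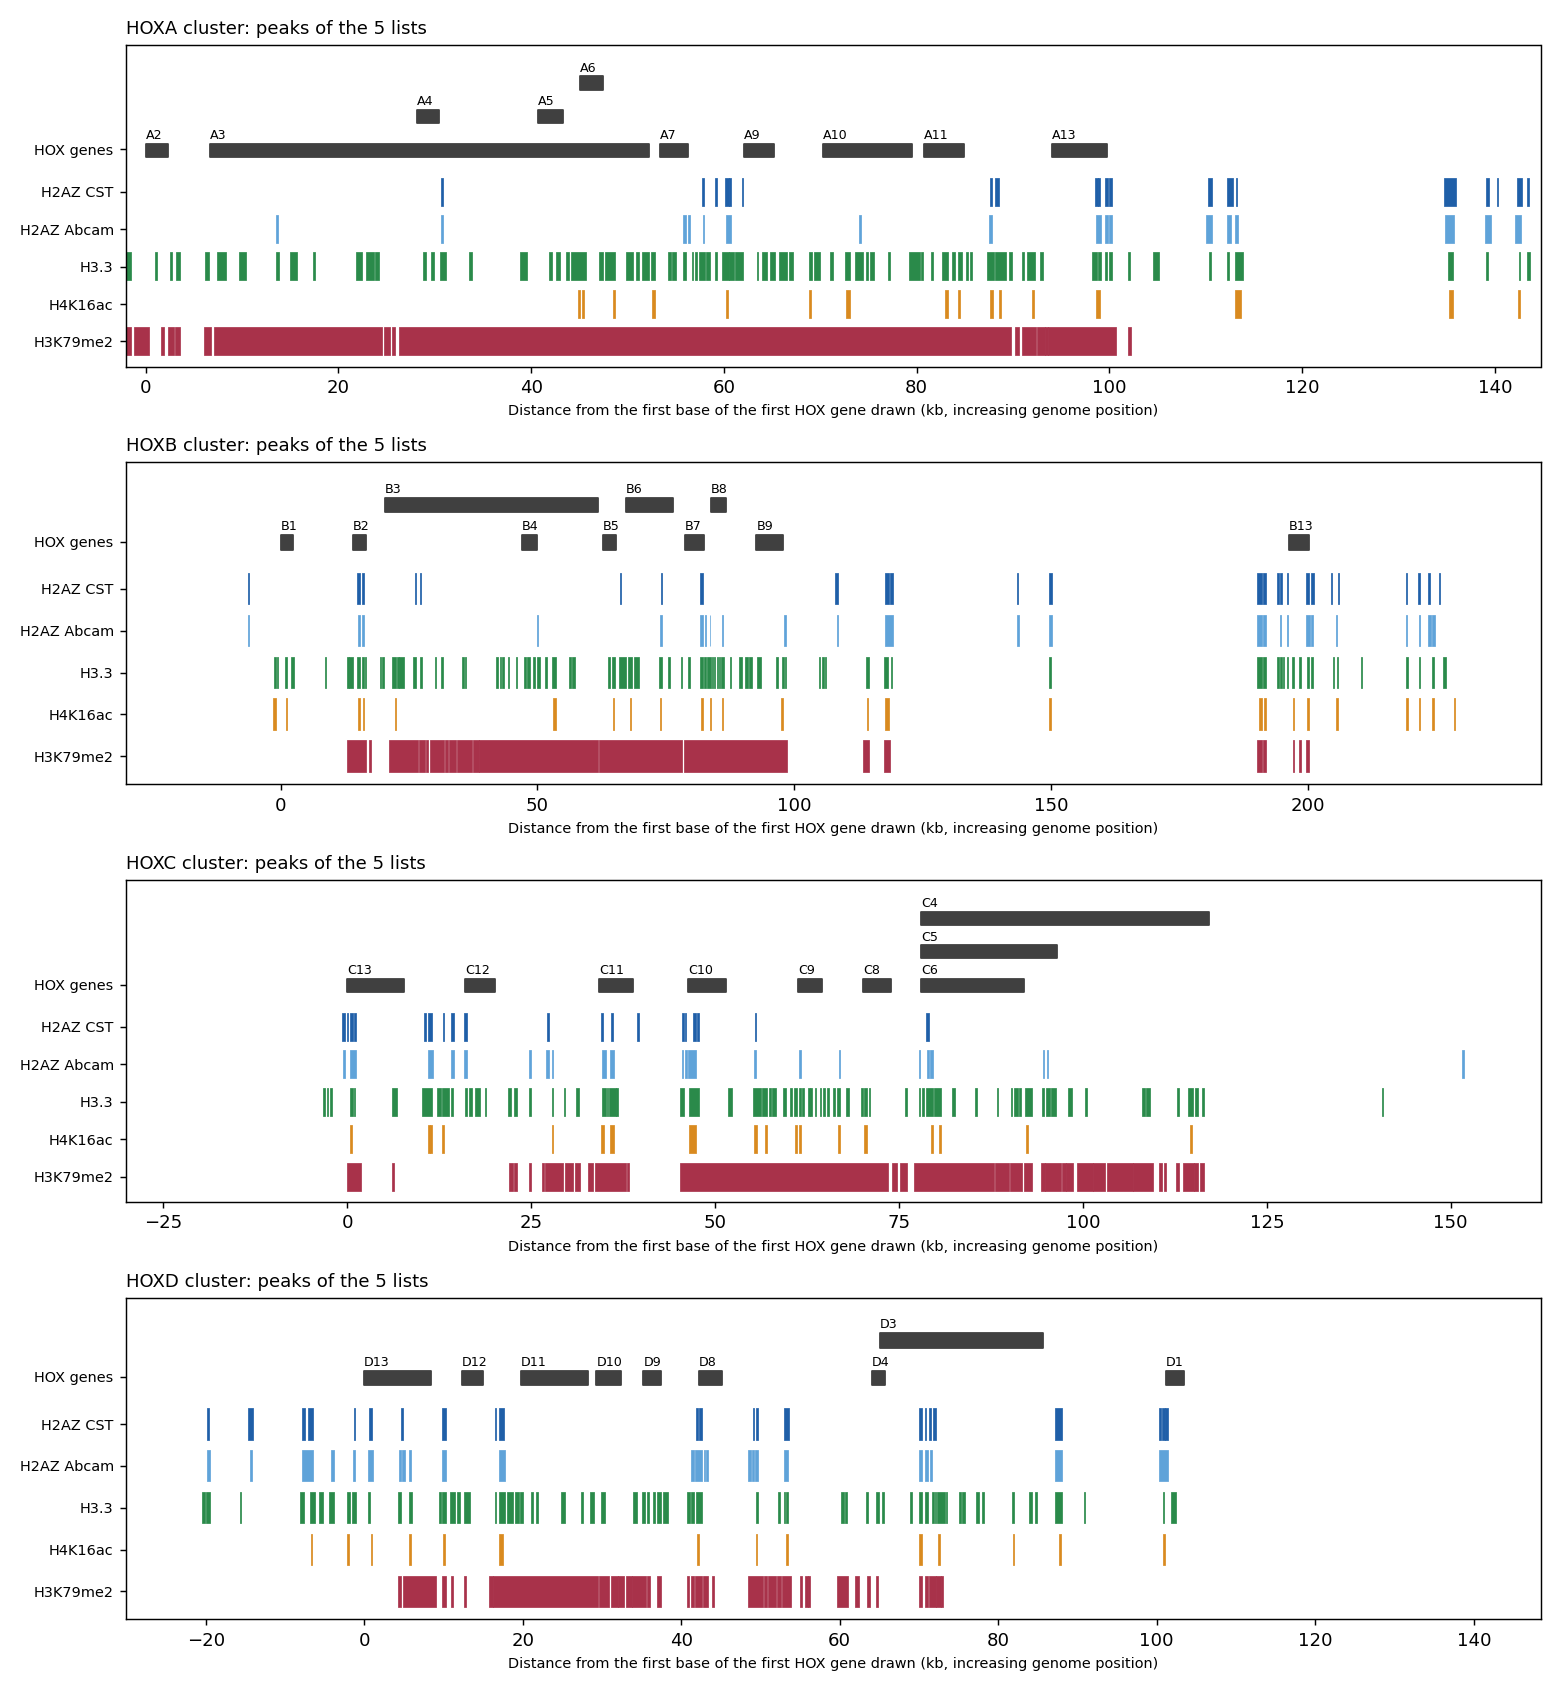
Peaks of the 5 lists (coloured bars, 1 row per list) and HOX genes (grey bars, numbered) in each cluster; the x axis is the distance in kb from the first base of the first HOX gene drawn. H3K79me2 covers 92.3% of the HOXA span and 36.7% of the HOXD span, and H3.3 peaks are scattered through all 4 clusters.

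All 39 HOX genes held an H3.3 peak and 36 held an H3K79me2 peak. Over the 19451 protein-coding genes that measure 1 kb or more, 68% held an H3.3 peak and 58.3% an H3K79me2 peak. Where an overlap of 1 bp was enough, H2AZ was found in a smaller share of HOX genes than of all genes. An H2AZ CST peak lay in 18 of 39 HOX genes, or 46.2%, against 75.1% of all genes. For H2AZ Abcam the count was 23 of 39, or 59%, against 76.3%. Where at least 10% of the gene had to be covered, the order was reversed for both. H2AZ CST then had 8 of 39 genes and H2AZ Abcam 12 of 39, against 9.51% and 10.9% of all genes. H4K16ac was found in 24 HOX genes, or 61.5%, against 61%, so its share was near the background. Among the 12214 genes as long as HOX genes (1677 to 45574 bp) the shares were 70.9%, 71.6%, 66%, 60.2% and 55.4% for H2AZ CST, H2AZ Abcam, H3.3, H4K16ac and H3K79me2. The members are not independent of each other, since 11 of them overlap another member and so share peaks. Genes that do not overlap share peaks too, as single H3K79me2 peaks lay over HOXB7, HOXB8 and HOXB9 and over HOXC8, HOXC9 and HOXC10. HOXA3 spans HOXA4, HOXA5 and HOXA6, HOXB3 spans HOXB4, HOXD3 overlaps HOXD4, and HOXC4, HOXC5 and HOXC6 begin at the same base.

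The length of gene covered set H3K79me2 further apart, with neighbouring genes under the same wide peak each counted. It covered at least 50% of 26 HOX genes, against 7.46% of all genes and 10.6% of genes as long, and it covered 18 HOX genes from end to end, against 0.874% of all genes and 1.02% of genes as long. The median HOX gene was covered over 96.2% by H3K79me2, and the median over all genes was 1.37%. For H3.3 the median was 28.5% in HOX genes and 0.832% in all genes. H3.3 cover was highest in HOXD9 with 52.5%, the one HOX gene past 50%, against 3.56% of all genes and 5.06% of genes as long. No HOX gene was covered over 50% by H2AZ CST, H2AZ Abcam or H4K16ac, and such cover was also rare in all genes (0.35%, 0.586% and 1.88%) and in genes as long (0.319%, 0.573% and 2.59%). The plot of gene cover shows 38 of the genes in the order of their numbers.

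**Figure D2:**
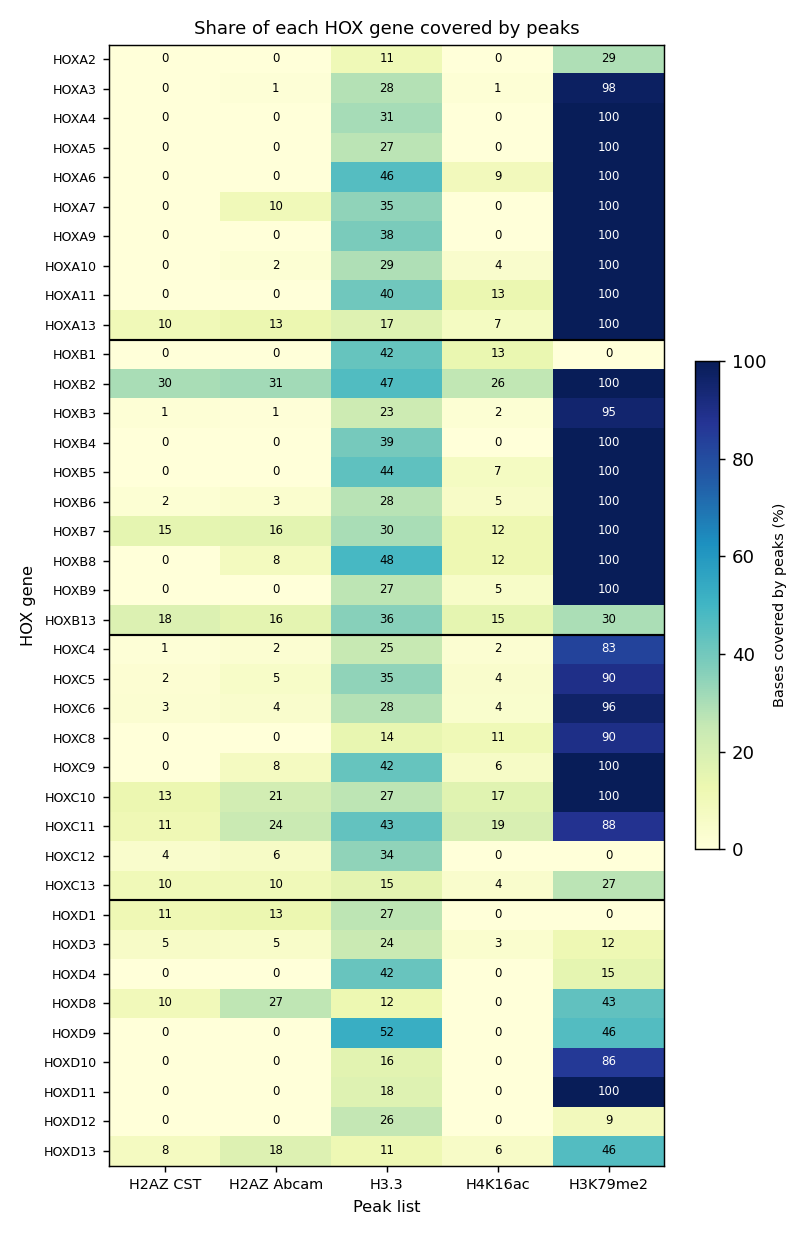
Share of each HOX gene's bases covered by peaks (percent, colour and printed value) for 38 HOX genes (rows, by cluster and number) and 5 lists (columns). H3K79me2 reaches 100% in 18 genes and is 0 in HOXB1, HOXC12 and HOXD1; H3.3 is above 0 in every row.

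HOXA was the most completely marked cluster. Its genes span 107.1 kb of chromosome 7, of which H3K79me2 covered 92.3% and H3.3 32.9%. A single H3K79me2 peak ran from 27126627 to 27190118, 63.5 kb, with the authors' −log10 q at 751. By width it ranked 2 of the 54476 H3K79me2 peaks. It held HOXA4, HOXA5, HOXA6, HOXA7, HOXA9, HOXA10 and HOXA11 from end to end. These are the middle and posterior genes of the cluster, among them HOXA5, which acts in the lung, HOXA9, a driver of acute leukaemias, and HOXA11, which acts in the developing kidney and forearm. A separate peak over HOXA13 was 7.06 kb wide and covered that gene fully.

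At the head end of HOXA the cover thinned. HOXA3 was covered over 97.7% and HOXA2, which patterns the second pharyngeal arch, over 29.2%. Joining H3K79me2 peaks across gaps of up to 2 kb gave a stretch of 96.2 kb. It began at 27106417, between HOXA2 and HOXA3, and ended at 27202591, 2500 bp beyond HOXA13. Joined across gaps of up to 5 kb, the stretch was 108.2 kb long with the same end. That end lies inside HOTTIP, a non-coding RNA gene named for its position at the tip of HOXA, of which H3K79me2 covered 14.7% (chosen after its values were seen). EVX1, the next protein-coding gene beyond HOXA13, had 0% H3K79me2, and SKAP2 on the other side had 4.63%.

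In this stretch H2AZ lay in some HOX genes and also between genes, and it had a strong peak farther out. Inside the H3K79me2 peaks of HOXA both lists had 1.11 summits per 10 kb. Over all H3K79me2 peaks of at least 10 kb the values were 0.946 for CST and 0.919 for Abcam. The gap from HOXA7 to HOXA9 held 5 H2AZ CST peaks over 19.8% of it and 3 H2AZ Abcam peaks over 15.8%. From HOXA2 to HOXA13, H2AZ CST peaks lay in HOXA3 and HOXA13 and in no other HOX gene, and H2AZ Abcam peaks lay in HOXA3, HOXA7, HOXA10 and HOXA13. Outside the stretch, between HOTTIP and EVX1, an H2AZ Abcam peak at chr7:27235200-27236148 had the authors' −log10 q at 367. It ranked 94 of the 44634 peaks of that list. H2AZ CST had a peak over the same place with −log10 q at 112, and no H3K79me2 peak overlapped it. Inside the HOXA span the highest H2AZ Abcam value was 92.1, at HOXA13.

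HOXB was split into a marked block and a 98.4 kb gap with H3K79me2 over 4.46%. The cluster spans chr17:48528526-48728750, 200.2 kb, with H3K79me2 over 42.3% and H3.3 over 16.6%. With gaps of up to 5 kb joined, as in all stretches from here on unless another distance is named, H3K79me2 ran from 48541423, between HOXB1 and HOXB2, to 48627028, between HOXB9 and HOXB13, a stretch of 85.6 kb. Within it HOXB2, HOXB4, HOXB5, HOXB6, HOXB7, HOXB8 and HOXB9 were covered over 100% and HOXB3 over 95.1%. HOXB4, known for its action in blood stem cells, HOXB5 and HOXB9 had no H2AZ peak of either list within the gene. H2AZ did lie beside HOXB5 and HOXB9. H2AZ CST covered 14.5% of the gap from HOXB5 to HOXB6. An H2AZ Abcam peak began at 48626606, just beyond the end of HOXB9 at 48626358. The starts of HOXB4, HOXB5 and HOXB9 were not among those examined. HOXB2 had the largest share of its length in H2AZ peaks of all 39 genes, with 30.2% covered in the CST list and 31.4% in the Abcam list.

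Both end genes of HOXB lay outside that stretch. HOXB1 had no H3K79me2 and no H2AZ, with H3.3 over 42.2% and H4K16ac over 13.4%. HOXB13, a posterior gene known from the prostate, stood alone at the far side of the gap with H3K79me2 over 30% in a separate run of 3.31 kb. In HOXB13, H2AZ CST covered 18.1% and H2AZ Abcam 15.5%, with a top Abcam −log10 q of 186. Inside the gap before HOXB13, PRAC1 had 0% H3K79me2 and PRAC2 22.1%. Beyond the cluster ends, SKAP1 had 0%, TTLL6 0% and CALCOCO2 4.75%.

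In HOXC the marked stretch started from the middle of the posterior group. The cluster spans chr12:53938831-54056030, 117.2 kb, with H3K79me2 over 65.3% and H3.3 over 25.2%. The stretch ran from 53984072, between HOXC11 and HOXC10, to 54055344, 686 bp short of the end of HOXC4, and was 71.3 kb long. HOXC9 and HOXC10, which act in motor neurons of the trunk and the lumbar cord, were covered over 100%, HOXC6 over 96.2%, HOXC8 over 90%, HOXC5 over 89.7% and HOXC4 over 82.7%. HOXC11 was covered over 88.1% but belonged to a separate run of 16.3 kb. That run and the main stretch became 1 stretch of 94.5 kb when gaps of up to 10 kb were joined.

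At the tail end of HOXC, H3K79me2 was low or absent and both H2AZ lists had peaks. H2AZ was not particular to that end, since it covered more of HOXC10 and HOXC11, where H3K79me2 was high. H2AZ CST covered 12.5% of HOXC10 and 11.1% of HOXC11, and H2AZ Abcam 21.4% and 24.0%. HOXC12 had no H3K79me2, with H2AZ CST over 4.29%, H2AZ Abcam over 6.09% and H3.3 over 34.5%. HOXC13, which acts in hair and nails, had H3K79me2 over 27.2% in a run of 6.42 kb and H2AZ CST over 10.4%. Only HOXC8 among the 9 HOXC genes had no H2AZ peak of either list. The flanking genes SMUG1, CBX5, CALCOCO1 and ATP5MC2 had H3K79me2 over 2.11%, 16.8%, 0% and 19.1%.

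HOXD had the least H3K79me2 and the most broken stretch. The cluster spans chr2:176087487-176190907, 103.4 kb, with H3K79me2 over 36.7% and H3.3 over 20.5%. HOXD11 was covered over 100% by 1 peak of 13.3 kb, and HOXD10 over 85.7% by 4 peaks. The other members lay lower: 46.2% for HOXD13, 46.1% for HOXD9, 43.5% for HOXD8, 15.1% for HOXD4, 11.7% for HOXD3, 9.35% for HOXD12 and 0% for HOXD1. HOXD13, HOXD9 and HOXD8 lay just below the 50% mark, and the lowest HOX gene above it was HOXC4 with 82.7%.

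The borders in HOXD depended on how peaks were joined. At 5 kb the stretch ran from 176091772, inside HOXD13, to 176152352, inside HOXD4, 60.6 kb with 58.7% of it in peaks. At 2 kb it shrank to 21.6 kb over HOXD11, HOXD10 and part of HOXD9. EVX2, next to HOXD13, had 0% H3K79me2, H2AZ Abcam over 27.5% and H3.3 over 34.3%. LNPK had H3K79me2 over 6.73%, and MTX2, beyond HOXD1, over 5.49%. HOXD12, HOXD11, HOXD10, HOXD9 and HOXD4 had no H2AZ peak of either list, while HOXD8 had H2AZ Abcam over 26.5% and HOXD1 had a top Abcam −log10 q of 264.

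Read by number across clusters, the middle and posterior groups 5, 6, 7, 10 and 11 had every member covered over at least 50% by H3K79me2. Those are 5 of the 13 paralog groups, the sets of genes in different clusters that descend from one ancestral gene. The median was 100% in groups 5, 6, 7, 9, 10 and 11. In group 13, the genes at the tail end of every cluster, H3K79me2 was 100% in HOXA13, 46.2% in HOXD13, 30% in HOXB13 and 27.2% in HOXC13. All 4 of them held H2AZ CST, H2AZ Abcam and H4K16ac peaks. These were common in all genes too, at 75.1%, 76.3% and 61%. Group 9 was the reverse for H2AZ CST, which had no peak in HOXA9, HOXB9, HOXC9 or HOXD9, while H3.3 covered between 26.9% and 52.5% of each.

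Both antibodies for H2A.Z left many HOX genes without a peak. Over all genes, neither list had a peak in 9.23% of the 1452 genes covered over at least 50% by H3K79me2. Among the 17999 genes under 50%, that share was 21.8%. In HOX genes, Abcam alone had a peak in 5 (HOXA7, HOXA10, HOXB8 and HOXC9 among them) and CST alone in 0. A peak of both lists lay in 18 of the 39 HOX genes and of neither in 16. Of those 16, 10 held H3.3 and H3K79me2 and no other list: HOXA2, HOXA4, HOXA5, HOXA9, HOXB4, HOXD4, HOXD9, HOXD10, HOXD11 and HOXD12. That combination was found in 70 genes of the 19451, or 0.36%, and in 0.475% of genes as long as HOX genes. These counts take in peaks within the gene only, and a peak just before a start is not counted. At HOXA4 the window around the start held H2AZ CST over 8.50% and H2AZ Abcam over 9.30%. HOX genes with all 5 lists numbered 15, a combination held by 40% of all genes.

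The same was seen among genes that H3K79me2 covered over at least 50%. Of the 26 such HOX genes, 11 (42.3%) had no H2AZ peak of either list, against 9.23% of the 1452 such genes and 9.58% of those as long as HOX genes. For the CST list alone it was 15 of 26 (57.7%) against 16.8%, and for the Abcam list alone 11 of 26 against 10.9%. Within the clusters, H2AZ still lay more often inside H3K79me2 peaks than outside. H2AZ Abcam summits numbered 1.91 per 10 kb inside and 0.479 outside, and H2AZ CST summits 1.54 and 0.827. The bases outside include most of the long gap from HOXB9 to HOXB13. In HOXC alone, H2AZ CST summits were near equal, at 1.57 and 1.48. There the H2AZ CST cover was lower inside (4.33%) than outside (5.29%).

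Gene starts gave a sharper view than whole genes. The RefSeq promoter table held 20 of the 39 genes, with 26 distinct starts, of which 7 belong to HOXA3 and 2 to HOXA10. HOXA has 16 of these starts, HOXD 8, HOXB 1 and HOXC 1, so the starts speak mainly for HOXA and HOXD. Within 1 kb of a start, H3.3 had a peak at 25 of 26 and H3K79me2 at 24 of 26, against 62.4% and 56.1% of all 21730 starts. H2AZ Abcam had one at 10, H2AZ CST at 7 and H4K16ac at 8 of 26, against 69%, 68.3% and 51.2%.

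At starts inside H3K79me2, H2AZ was missing from most. The window was covered over at least 50% by H3K79me2 at 21 HOX starts, and 13 of them (61.9%) had no H2AZ peak of either list. Over all genes 8334 starts had such a window and 2.64% of them had no H2AZ peak. With 1 start per gene, the outermost, it was 8 of 15 HOX genes against 1.26%. HOXC4 and HOXC5 share a start and both count among the 15. The 8 genes were HOXA2, HOXA3, HOXA6, HOXA9, HOXA10, HOXA11, HOXD10 and HOXD11. An inner start of HOXA3 and the inner start of HOXA10 did have H2AZ Abcam, over 9.65% and 9.00% of the window. H3.3 had a peak at 20 of the 21 windows. In the plot of start windows, most points with full H3K79me2 lie on the zero line for H2AZ Abcam and well above it for H3.3.

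**Figure D3:**
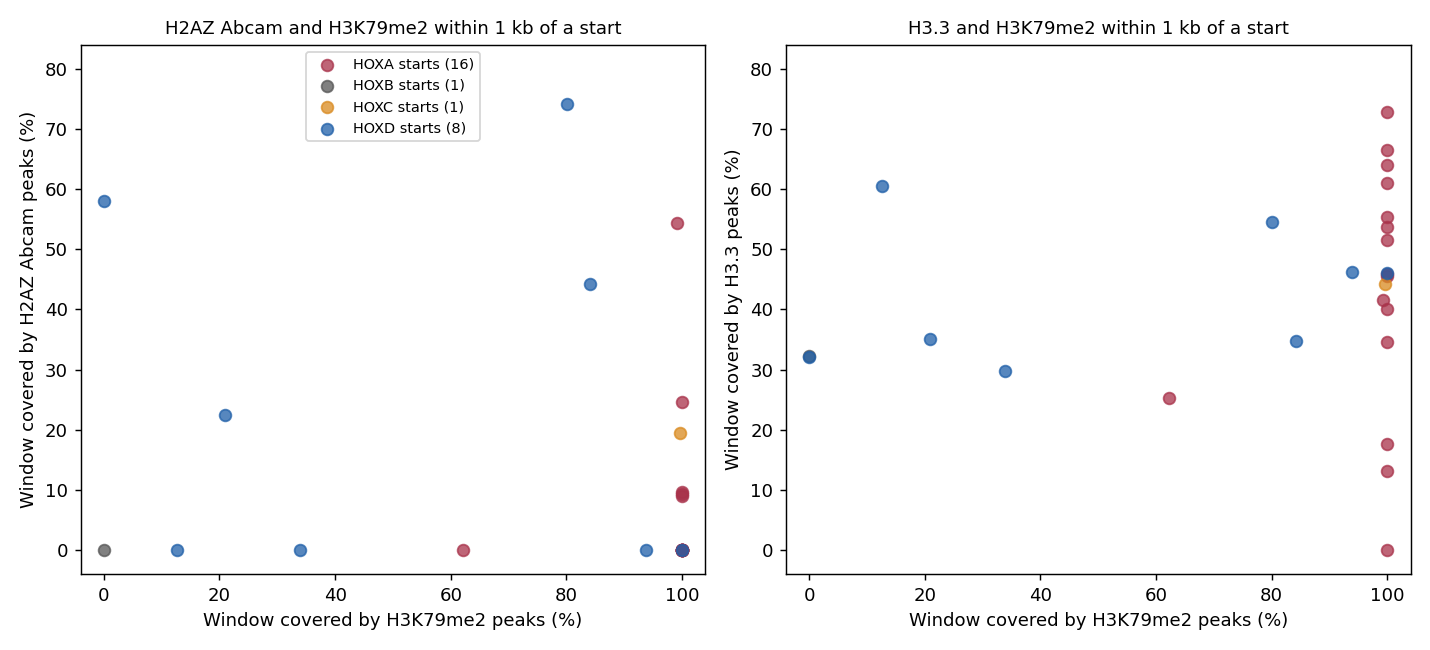
Share of the window from 1 kb before to 1 kb after each of 26 HOX gene starts covered by H3K79me2 (x axis, percent) and by H2AZ Abcam or H3.3 (y axes, percent); each point is 1 start, coloured by cluster, and coinciding points look darker. H2AZ Abcam is 0 at 13 of the 21 starts at or above 50% H3K79me2, and H3.3 is above 0 at 20 of them.

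CG dinucleotides before the start were more frequent, in the median, where H2AZ was present. The 10 HOX starts with an H2AZ peak of either list had a median of 25 CG dinucleotides in the 250 bases before the start (14 to 40) and 71.4% G and C. The 16 without had a median of 12 CG (0 to 27) and 52.4% G and C, and the median over all 21730 starts was 17 CG and 62.4%. The ranges of the 2 kinds of HOX start overlapped, and several starts without H2AZ belong to HOXA3. HOXA10, HOXA13, HOXD1 and HOXB1 above lie at 19, 40, 31 and 7 on this count. The motif CCAAT, on either strand, occurred before 17 of 26 HOX starts (65.4%) and 32.5% of all starts, and TATAAA, on either strand, before 5 (19.2%) and 8.44%. A match is a run of letters only and shows no binding.

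H3.3 was dense inside the H3K79me2 of HOX clusters. Of the H3K79me2 bases in the 4 spans, 33.6% were also in H3.3 peaks, against 17.3% over chromosomes 1 to 22 and X. The shares by cluster were close: 35.3% in HOXA, 33.2% in HOXB, 31.3% in HOXC and 34.6% in HOXD. H3.3 summits numbered 7.48 per 10 kb inside H3K79me2 and 1.96 outside it. For H2AZ the order was the other way: 7.35% of the H3K79me2 bases of the clusters were in H2AZ Abcam peaks, against 13.6% genome-wide, and 5.05% against 11.6% for H2AZ CST.

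Wide peaks gave a closer comparison, since wide H3K79me2 peaks reach far from gene starts. The list held 637 H3K79me2 peaks of at least 10 kb, of which 8 lay over HOX genes. H3.3 covered 22.9% to 38.3% of each of these 8, and the median over the 637 was 5.31%, with quartiles of 2.86% and 9.02%. The widest, over HOXA3 to HOXA11, held 50 H3.3 summits and 38.3% H3.3, and 36 of the 637 had more. The lowest of the 8, over HOXB3 and HOXB4, had 61 above it. H2AZ did not stand apart in this comparison, with medians of 2.97% in the 8 and 3.72% in the 637 for CST and 4.07% and 4.76% for Abcam. In the plot of wide peaks the HOX lines lie to the right of most of the H3.3 distribution and inside that of H2AZ Abcam.

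**Figure D4:**
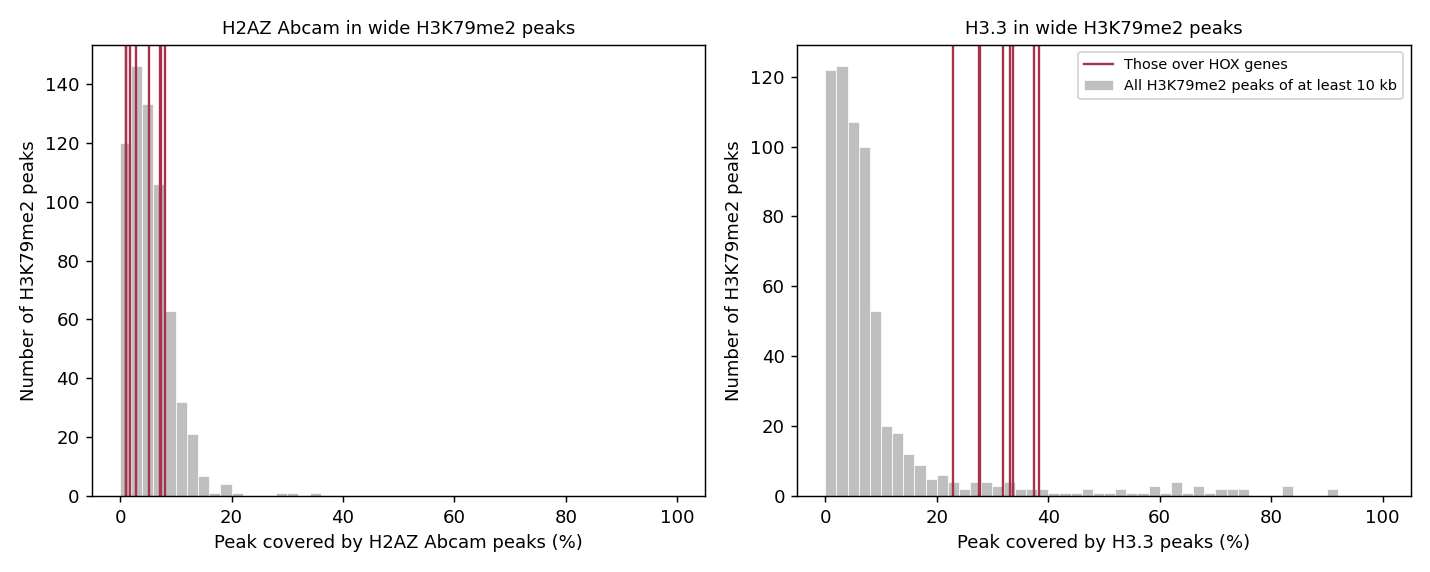
Number of H3K79me2 peaks of at least 10 kb (y axis, 637 peaks, grey bars 2 percentage points wide) by the share of the peak covered by H2AZ Abcam or H3.3 (x axes, percent); red lines mark the 8 peaks over HOX genes. H3.3 covers 22.9% to 38.3% of these 8, and H2AZ Abcam at most 8.13%.

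H3.3 peaks of the clusters were many rather than wide. Their median width was 396 bp in HOXA, 409 bp in HOXB, 320.5 bp in HOXC and 324 bp in HOXD, and 313 bp over all 72287 H3.3 peaks. The highest −log10 q was 117 in HOXB, at a peak over HOXB3 and the non-coding gene HOXBLINC, and 105 in HOXA, within HOXA3. Joined across 5 kb, H3.3 gave stretches of 54.2 kb in HOXA, 34.8 kb in HOXB, 55.2 kb in HOXC and 50.7 kb in HOXD. The HOXA stretch ran from inside HOXA3 to beyond HOXA11, and the HOXB stretch from HOXB5 to beyond HOXB9. These lengths followed the joining distance closely, reaching 119.7 to 126.3 kb at 10 kb.

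Most gaps between HOX genes held H3.3 and H3K79me2 peaks. The 28 gaps hold 258.7 kb, of which 98.4 kb lie between HOXB9 and HOXB13. H3.3 had a peak in 27 gaps and H3K79me2 in 26, against 47.7% and 34.6% of the 12203 gaps of 1.01 to 98.4 kb between protein-coding genes. H4K16ac had a peak in 15, H2AZ Abcam in 16 and H2AZ CST in 13, against 38.1%, 57.7% and 57%. H3K79me2 covered at least 50% of 18 gaps, against 1.34% of all such gaps, and 10 gaps from end to end, against 0.279%. H3.3 covered at least 50% of 5 gaps, against 2.17%. H2AZ CST, H2AZ Abcam and H4K16ac covered at least 50% of 0 gaps, against 0.385%, 0.557% and 0.885%.

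H3K79me2 covered less of the gap bases than of the gene bases in each cluster. The shares were 87.1% of gap bases and 94.4% of gene bases in HOXA, 14.3% and 90.1% in HOXB with the long gap included, 53.2% and 74.3% in HOXC, and 34.3% and 39.2% in HOXD. Within HOXA, H3.3 was denser between genes than in them. It covered 46.1% of the gap bases and 27.5% of the gene bases of that cluster. In HOXB the order was reversed, with 9.78% of gap bases and 28.1% of gene bases, the long gap included. The 5 gaps past 50% H3.3 were HOXB7 to HOXB8 with 86.3%, HOXA10 to HOXA11 with 82.5%, HOXB5 to HOXB6 with 64.6%, HOXA7 to HOXA9 with 62.1% and HOXD11 to HOXD12 with 50.9%. HOXB3 to HOXB5 was the gap with no H3.3 peak, at 1.01 kb the shortest of the 28.

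**Figure D5:**
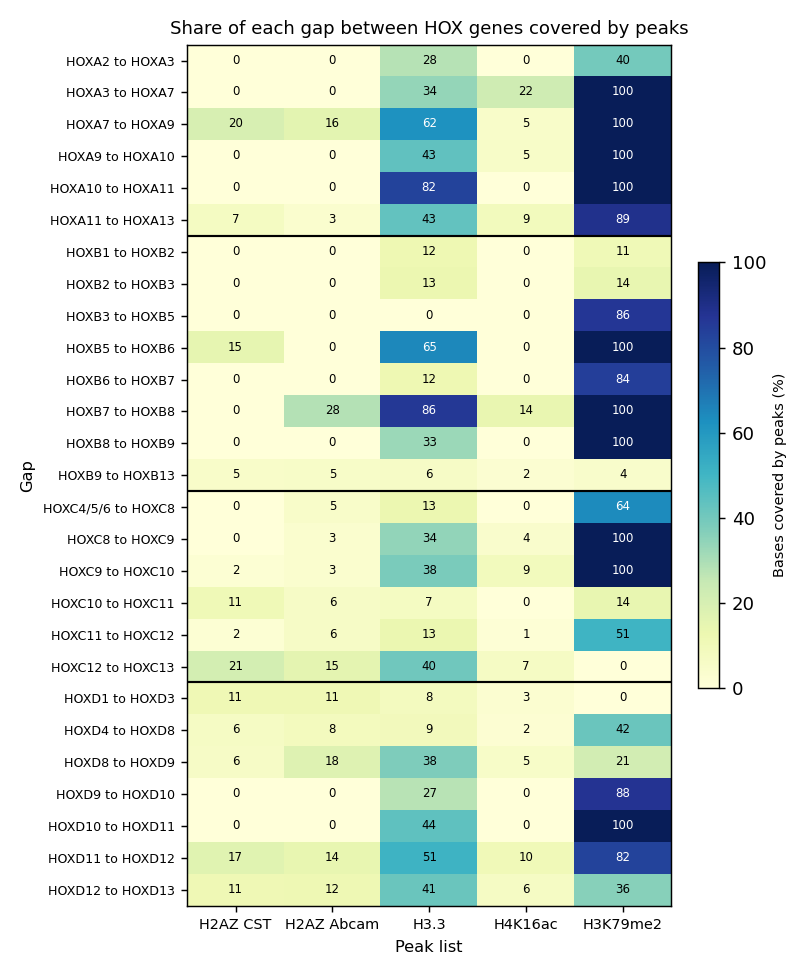
Share of each gap's bases covered by peaks (percent, colour and printed value) for 27 of the gaps between HOX genes (rows, by cluster, from low to high gene number) and the 5 lists (columns). H3K79me2 covers 100% of 10 gaps, 4.46% of the long gap from HOXB9 to HOXB13, and none of HOXC12 to HOXC13 and HOXD1 to HOXD3.

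Other gaps had little or no H3K79me2. HOXB1 to HOXB2 had 10.6% covered, HOXB2 to HOXB3 14.3%, HOXC10 to HOXC11 14.3% and HOXA2 to HOXA3 39.7%. H3K79me2 had no peak from HOXC12 to HOXC13 or from HOXD1 to HOXD3, where both H2AZ lists did. H2AZ CST covered 20.8% and H2AZ Abcam 15.5% of the gap from HOXC12 to HOXC13. From HOXD1 to HOXD3 the values were 11.1% and 11.2%.

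Most long non-coding RNA genes of the clusters held H3.3 and H3K79me2 peaks. All 24 long non-coding RNA genes of the 4 spans held an H3.3 peak and 20 held H3K79me2, which covered at least 50% of 16. Over the 17494 long non-coding RNA genes of at least 1 kb, 22.5% held an H3.3 peak, 13.6% held H3K79me2 and 2.2% were covered by it over at least 50%. H3.3 covered at least 50% of 4 of the 24, against 1.55%. H3K79me2 covered 42.3% of HOXB-AS1, 89.2% of HOXA-AS2 and 100% of HOXA10-AS and HOXA11-AS. HOTAIR, transcribed between HOXC11 and HOXC12 and known for silencing at HOXD, had 63.3%. HAGLR, which fills the gap from HOXD3 to HOXD1, had none, with H2AZ CST over 12.6%.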

How the data were processed

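The submitters' processing notes name MACS2 2.1.0, Bowtie 1.1.2, Trimmomatic 0.33 and bcl2fastq 2.17, and build hg38. Settings and read depth were not given in the sources used here. Deposited peak lists, 1 per antibody, give positions, the authors' fold enrichment (a linear ratio), q-value and p-value as −log10, and a display score. Fold, −log10 p and the authors' score support no result, and −log10 q serves within a list only. The smallest −log10 q was 2.00 to 2.06. The input library was not analysed here.

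Peaks on chromosomes 1 to 22 and X were set against RefSeq genes and promoter and microRNA sequences (GRCh38.p14, the assembly of hg38) with Python 3.11.15, pandas 2.3.3 and numpy 2.4.6. A gene held a peak when at least 1 bp overlapped. Strand was given only in the promoter and microRNA tables. Interval arithmetic was tested on simulated data. All 39 genes enter the counts, and values of 1 of them are not reported here. Genes given value by value are those covered over at least 50% by H3K79me2, those with H2AZ, those at the edges of each stretch and the nearest flanking genes. Members, lists and rules were chosen with earlier results of these data known. Alternatives were stricter peak sets, other definitions of a marked gene or gap, and joining across 2 or 10 kb.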

Additional observations from a re-analysis of the deposited data

How the results depend on the processing

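No paired analysis was possible because each antibody had 1 library. Of 98 alternative values over 29 results, 65 lay within 1.5 times the reported value and 33 did not. With peaks at −log10 q of at least 5, the one value to move was the HOXD H3K79me2 stretch, at 39.1 kb. With the 10000 strongest peaks of each list, HOX genes with a peak fell to 25 for H3.3, 3 for H2AZ CST, 5 for H2AZ Abcam and 2 for H4K16ac, against 28.4%, 35.5%, 39.6% and 21% of all genes, and H3K79me2 had 31, against 45% of all genes. Gaps with a peak became 4, 6 and 3 for H2AZ CST, H2AZ Abcam and H4K16ac, against 27.4%, 29.2% and 10.2% of gaps as long. No HOX gene was covered over 50% by H3.3 (0), against 1.28% of all genes. The HOXD H3K79me2 stretch was 14.6 kb and the H3.3 stretches were 18.6, 15.6, 11.8 and 10.2 kb in HOXA to HOXD. The share of H3K79me2 bases of the clusters in H3.3 peaks became 18.3% and in H2AZ Abcam peaks 1.61%. The genome-wide shares with these peaks were not computed, so the contrast with the genome cannot be judged at this setting. HOX starts in H3K79me2 without H2AZ were then 18 of 19, against 32.4% of all starts.

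Asking for 10% of the gene covered left 8, 12 and 9 of 39 genes for H2AZ CST, H2AZ Abcam and H4K16ac, against 9.51%, 10.9% and 17.1% of all genes. Asking for 10% of the gap left 7, 8 and 3 of 28 gaps, against 9.39%, 10.8% and 7.99% of gaps as long. For both H2AZ lists the HOX share of genes was then above that of all genes, the reverse of the order at 1 bp. Asking for a summit inside the gene left 21 of 39 genes for H3K79me2, against 56.5% of all genes, so its share was then near the background. Each peak has 1 summit, however wide it is. Widening genes by 1 kb gave 4 genes covered over 50% by H3.3, against 3.18%. Joining across 2 kb gave 21.6 kb for HOXD H3K79me2 and 15.6, 15.9 and 9.36 kb for H3.3 in HOXB, HOXC and HOXD. Joining across 10 kb gave 126.3, 120.4, 119.7 and 122.8 kb for H3.3 in HOXA to HOXD. With the outermost start of each gene, 8 starts in H3K79me2 lacked H2AZ. The causes of these changes were not tested. The alternatives on starts, paralog groups, non-coding genes and overlap were chosen after seeing the data.

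Read depth per library is unknown, so a gene without a peak had none past the authors' threshold in that library, which does not show absence. Lists of different depth cannot be ranked by their counts, and copy number in this cell line was not analysed here.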

Other observations

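Genes that work with HOX proteins did not carry such blocks. Among the cofactor genes, H3K79me2 covered 29.5% of PBX2, 3.22% of PBX3, 3.15% of MEIS1, 2.85% of MEIS2 and 10.1% of PKNOX1, and 0% of MEIS3. The caudal genes CDX1, CDX2 and CDX4 encode factors that act upstream of HOX genes in the embryo. CDX2 was covered over 66.4% by H3K79me2, with H2AZ Abcam over 29.5% and H3.3 over 26%, while CDX1 and CDX4 had 0%. Of the 15 flanking genes, H3K79me2 had a peak in 9, against 58.3% of all genes, so this share was near the background. It covered at least 50% of 0 flanking genes, against 7.46% of all genes.

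Within the long gap between HOXB9 and HOXB13, both H2AZ antibodies had a strong peak in the non-coding gene LINC02086. The H2AZ Abcam peak at chr17:48678102-48678601 had the authors' −log10 q at 255, and H2AZ CST had 77.5 at the same place. MIR615, within HOXC4 and HOXC5, lay fully inside H2AZ Abcam, H3.3 and H3K79me2 peaks. MIR7704, at the start of HOXD1, lay fully inside both H2AZ lists and outside H3.3 and H3K79me2.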
